A study of Mus musculus with 2 samples.

Results

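The microRNA genes Mir130a, Mir130b, Mir301 and Mir301b form a family in the mouse, and their reads were followed here in embryonic limb. The genes were taken by symbol, through their Ensembl identifiers in the GENCODE mouse annotation, and all 4 were found among the 1973 microRNA genes of the count tables. They lie at 3 loci. The family was selected on its own-strand read counts in these libraries, so levels and ratios of its members are given as a description and without a test. All 4 members had at least 10 counts in both libraries, as did 333 of the 1973 genes.

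The samples were limbs of B6NCrl mouse embryos at embryonic day 14.5, with sex given as pooled. There was 1 group of 2 samples, labelled biological replicates 1 and 2, each made of 4 limbs of a pup, collected on different days and carrying the same donor label. No treatment, mutant or second tissue was present, so the spread between the 2 libraries was the only error that could be measured. Nothing in the labels beyond the replicate numbers and collection days shows that the samples came from separate animals.

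RNAs under 30 nucleotides were read. Reads that lay on a microRNA gene and on its strand numbered 4608816 in replicate 1 and 4144385 in replicate 2. The unit of level is CPM, a gene's counts per 1000000 of these reads. The limb label was checked against microRNAs of its tissues. Mir140 of cartilage reached 57289 ± 2418 CPM (SD, n = 2), and Mir196b and Mir10b of the Hox clusters 51975 ± 3475 and 10455 ± 978 CPM. Mir206 of skeletal muscle reached 5226 ± 1152 CPM and Mir203 of the epidermis 35988 ± 6258 CPM. The liver microRNA Mir122 stood at 9.90 ± 5.11 CPM and the heart microRNA Mir208a at 2.28 ± 0.152 CPM. The brain microRNA Mir124a-1 had 0 counts, and another brain microRNA chosen for the check matched no counted gene by symbol. A low count does not show that a tissue is absent, since reads with several alignments were given to no gene.

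A microRNA gene is transcribed as part of a longer RNA, cut to a hairpin and then to a duplex of a 5p and a 3p arm, of which a strand is loaded onto an Argonaute protein and guides it to messenger RNAs. Bases 2 to 8 of the loaded strand, the seed, do most of the pairing with targets, so microRNAs with a common seed share many predicted targets. The miR-130 and miR-301 family is known from other studies for targets in growth factor signalling, vascular biology and lipid and fat cell regulation, among them the fat cell regulator Pparg. In whole tissue, fewer cells of a type and less RNA per cell cannot be told apart.

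The arms printed here show what makes these 4 genes a family and how closely their products resemble each other. The sequences are those of RefSeq on GRCm38.p6, written 5′ to 3′ with the seed in capitals. Hairpins of all 4 genes matched, and 7 mature arms were listed for them. The 3p arms listed were:
miR-130a-3p: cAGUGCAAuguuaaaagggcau
miR-130b-3p: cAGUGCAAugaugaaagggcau
miR-301a-3p: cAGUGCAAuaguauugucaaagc

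These 3 arms carried the same seed. The 3p arm of miR-301b was not among the entries, and the seed letters AGUGCAA were located in its hairpin instead. With the seed letters in capitals, the hairpins were:
Mir130a: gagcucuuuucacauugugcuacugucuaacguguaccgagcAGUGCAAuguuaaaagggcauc
Mir130b: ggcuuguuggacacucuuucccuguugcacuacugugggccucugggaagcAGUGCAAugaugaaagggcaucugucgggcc
Mir301: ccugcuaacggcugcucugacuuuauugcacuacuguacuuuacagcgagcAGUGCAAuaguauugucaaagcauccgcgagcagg
Mir301b: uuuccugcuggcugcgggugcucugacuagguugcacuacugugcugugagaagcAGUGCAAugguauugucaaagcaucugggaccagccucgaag

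The letters AGUGCAA occurred once in each member's hairpin, and in 12 of the 1005 mouse hairpins of the table (1.19%). They began at base 43 of the Mir130a hairpin, at base 52 in Mir130b and Mir301, and at base 56 in Mir301b. The hairpins were 64, 82, 86 and 97 bases long in Mir130a, Mir130b, Mir301 and Mir301b.

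Behind the common seed the members split into the pairs that their names give. Counting positions from 1 at the 5′ end and writing the base of the first-named arm first, miR-130a-3p and miR-130b-3p differed by U11A and A13G over 22 bases. By contrast, miR-130a-3p and miR-301a-3p were identical over their first 9 bases and differed at 10 of 22 positions, and miR-130b-3p and miR-301a-3p differed at 11 of 22. The closest window of another hairpin to miR-301a-3p lay in Mir301b and held 1 mismatch.

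The 5p arms did not share a seed across the family. Between miR-130a and miR-130b they were less alike than the 3p arms, with 7 substitutions, but between miR-130b and miR-301a they were more alike, with 6. Again with bases 2 to 8 in capitals, they were:
miR-130a-5p: gCUCUUUUcacauugugcuacu
miR-130b-5p: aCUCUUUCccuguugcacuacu
miR-301a-5p: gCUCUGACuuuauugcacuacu
miR-301b-5p: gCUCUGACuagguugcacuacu

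The seed CUCUGAC was common to miR-301a-5p and miR-301b-5p, which differed by U10A, U11G and A12G. The seeds of miR-130a-5p and miR-130b-5p differed from it and from each other, through U8C between these 2 arms. The tables give 1 count per gene, so reads of the 5p and the 3p arm were added together and which arm supplied them was not measured.

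The 4 genes lie on 3 chromosomes. In GRCm38 coordinates, Mir130a (ENSMUSG00000065484.1) lies on chromosome 2 from 84741115 to 84741178 on the minus strand, in no other annotated gene. It sits 990 bases from the gene Gm19426 on the same strand and 2459 bases from Ypel4 on the other. Mir301 (ENSMUSG00000065589.1), the gene of miR-301a, lies on chromosome 11 from 87113004 to 87113089 on the plus strand, in an intron of Ska2, which encodes a subunit of the spindle and kinetochore complex.

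Mir130b (ENSMUSG00000065572.1) and Mir301b (ENSMUSG00000076288.1) are neighbours on the minus strand of chromosome 16, from 17124061 to 17124142 and from 17124400 to 17124496, with 257 bases between them. Both lie in an intron of the protein-coding gene 2610318N02Rik, on its strand. No further microRNA gene was annotated within 10 kb of any member.

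Mir130a carried most of the family's reads. It was counted 124633 times in replicate 1 and 118324 times in replicate 2, or 27042 and 28550 CPM, which placed it 12th of all genes in each library. Its mean was 27796 ± 1066 CPM (SD, n = 2), above 96.4% of the 333 detected genes. Ranks and such percentages compare only reads placed at a single gene, since reads with several alignments were given to no gene. Genes with copies elsewhere can therefore rank too low, and the members too high beside them. The 95% exact binomial interval of counting error ran from 26894 to 27191 CPM in replicate 1 and from 28390 to 28711 CPM in replicate 2 and did not overlap. The log2 ratio of replicate 2 over replicate 1 was 0.0783. It was 0.0162 with TMM factors, 0.0270 with all reads as the total and 0.0445 with reads of several alignments in the total. Without the 10 most abundant genes it was 0.0846. With DESeq2 size factors it was 0.00637, within counting error, so the size of that difference depended on the scaling.

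Mir130b came next, with 21641 reads in replicate 1 and 19940 in replicate 2, or 4696 and 4811 CPM. The mean was 4753 ± 81.9 CPM, rank 45, while its rank within each library was 44. Its coefficient of variation between the libraries was 1.72%, the lowest of the 4 with this scaling. With TMM scaling or DESeq2 size factors, Mir130a differed less between the libraries than Mir130b (log2 ratios of 0.0162 and -0.0270 with TMM).

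Mir301 was read 7135 times in replicate 1 and 7227 times in replicate 2, or 1548 and 1744 CPM, with a mean of 1646 ± 138 CPM and rank 86. It varied most of the 4, with a coefficient of variation of 8.41%, against a median of 5.57% over the 275 genes that reached 100 counts over both libraries.

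Mir301b was the lowest member, with 439 reads in replicate 1 and 427 in replicate 2, or 95.3 and 103 CPM. Its mean was 99.1 ± 5.50 CPM, rank 193, and its counting intervals overlapped, from 86.5 to 105 CPM in replicate 1 and from 93.5 to 113 CPM in replicate 2.

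The order Mir130a, Mir130b, Mir301, Mir301b held in both libraries, and no 2 members had overlapping values. The members' median level was 3200 CPM, beside 177 CPM over all detected genes. Only Mir301b lay below that median of the detected genes, which also leaves out reads with several alignments.

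**Figure D1:**
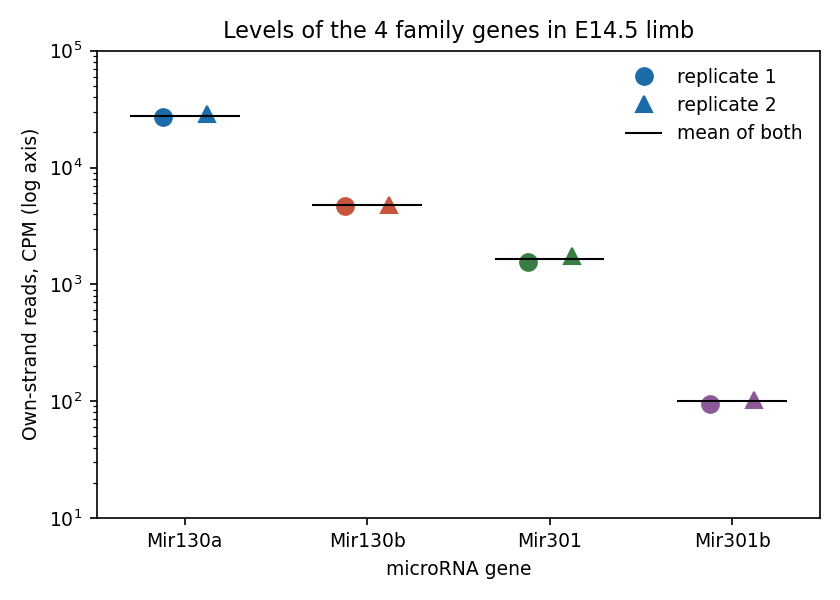
Own-strand reads in CPM on a log axis for the 4 family genes, with circles for replicate 1, triangles for replicate 2 and a black line at the mean of both. Levels run from 27796 CPM for Mir130a to 99.1 CPM for Mir301b, and each gene's 2 libraries lie close together beside the gaps between genes.

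**Figure D2:**
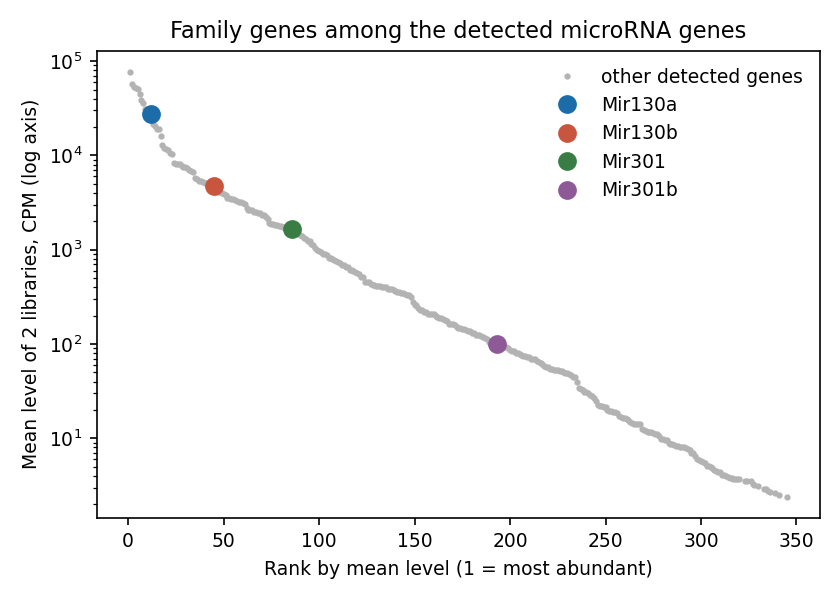
Mean level of each detected gene in CPM on a log axis against its rank, with the family in colour and the other detected genes in grey. Mir130a stands at rank 12, Mir130b at 45, Mir301 at 86 and Mir301b at 193.

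Together the 4 genes had 153848 reads in replicate 1 and 145918 in replicate 2, or 33381 and 35209 CPM. The mean of 34295 ± 1292 CPM (SD, n = 2) is 3.43% ± 0.129 of all own-strand microRNA reads. The yield of reads per molecule was not measured for any microRNA, so shares and ratios compare reads and not amounts of RNA.

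By locus, Mir130a on chromosome 2 gave 81.0% of the family's reads in replicate 1 and 81.1% in replicate 2. The chromosome 16 locus of Mir130b and Mir301b gave 14.4% and 14.0%, and Mir301 on chromosome 11 gave 4.64% and 4.95%. The 3 shares were far apart in both libraries. The exact 95% intervals of the Mir130a share, 80.8% to 81.2% in replicate 1 and 80.9% to 81.3% in replicate 2, overlapped. Those of Mir301 did not, at 4.53% to 4.74% in replicate 1 and 4.84% to 5.07% in replicate 2. Nor did those of the chromosome 16 locus, at 14.2% to 14.5% in replicate 1 and 13.8% to 14.1% in replicate 2.

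**Figure D3:**
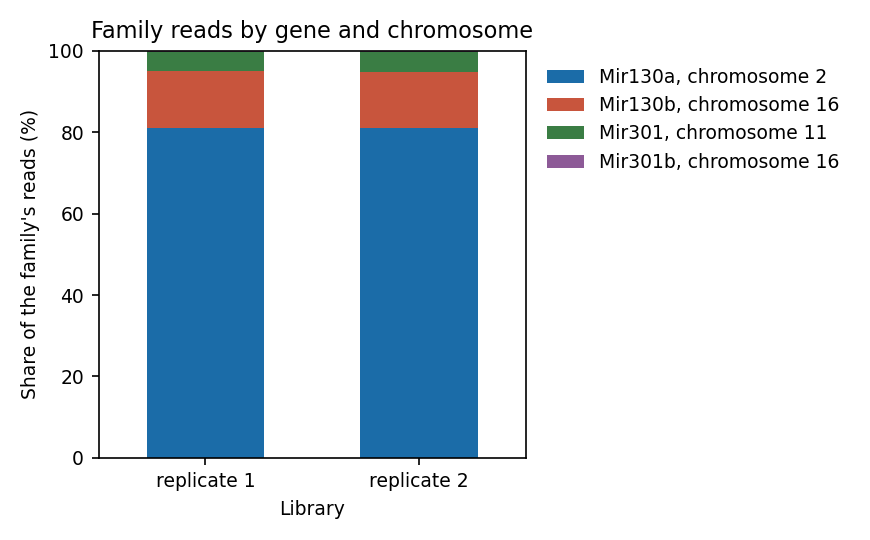
Share of the family's own-strand reads in percent given by each gene, stacked to 100% for each library, with chromosomes in the legend. Mir130a fills 81.0% and 81.1% of the bars of replicates 1 and 2, and the Mir301b band of 0.285% and 0.293% is barely visible.

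Within each name pair the a gene was read more than the b gene. Mir130a had 5.85 ± 0.124 times the reads of Mir130b (SD, n = 2), and Mir301 had 16.6 ± 0.475 times the reads of Mir301b. Across the pairs, Mir130a had 16.9 ± 0.775 times the reads of Mir301, with 17.5 in replicate 1 and 16.4 in replicate 2. The Mir130 genes together had 18.7 ± 0.883 times the reads of the Mir301 genes together.

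The chromosome 16 locus outweighed the Ska2 intron: Mir130b and Mir301b together had 2.96 ± 0.195 times the reads of Mir301, with 3.09 in replicate 1 and 2.82 in replicate 2. Nearly all of that came from Mir130b. The genes differ in annotated length, but the listed arms of the members are 22 or 23 bases long. Reads were taken to come from such arms, which was not measured, and so were not divided by length here. Divided by annotated length, Mir130a stood at 22.7 times Mir301.

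The members of the chromosome 16 locus were read very unequally. Mir130b had 49.3 times the reads of Mir301b in replicate 1 (exact 95% interval 44.8 to 54.3) and 46.7 times in replicate 2 (42.4 to 51.5). The intervals overlapped, and the mean was 48.0 ± 1.84 (SD, n = 2).

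To place this ratio, all neighbouring detected microRNA genes on a strand with at most 10 kb between them were compared in the same way. Of 106 such pairs, 85 differed by less than Mir130b and Mir301b and 20 by more. The median was 8.19-fold, the quartiles ran from 2.05-fold to 31.7-fold, and the extremes were 1.00-fold and 3156-fold. Of the 62 pairs with at most 1 kb between them, 52 differed by less. The pairs share genes and some hold microRNAs with copies elsewhere in the genome, so this is a description and no test.

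**Figure D4:**
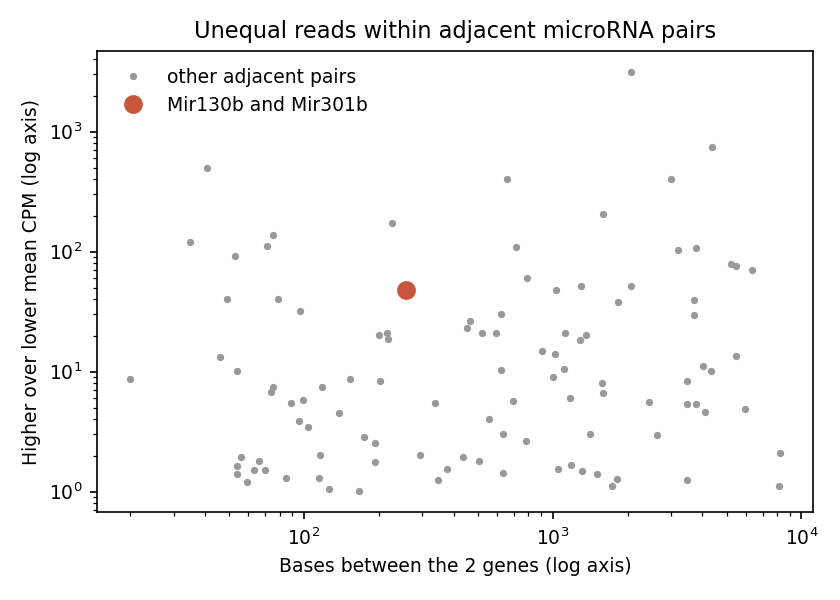
Higher over lower mean CPM of each adjacent pair of detected microRNA genes on a strand, against the bases between the genes, both on log axes. The pair of Mir130b and Mir301b stands at 257 bases and 47.9-fold, the ratio of the mean levels, with 20 of 106 pairs above it.

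With 1.5-fold as the threshold, 1.09% of the 275 genes (those with 100 counts or more over both libraries) differed either way between them. Of the 4 members, 0 did, and at so low a share over all genes this does not set the family apart. No p-value was computed, since a comparison of 1 library with another has no replication.

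The log2 ratio of replicate 2 over replicate 1 was 0.08 for Mir130a, 0.04 for Mir130b, 0.17 for Mir301 and 0.11 for Mir301b. All 4 were thus higher in replicate 2, as were 57.5% of the 275 genes, but Mir130b was lower with TMM scaling (-0.0270), with DESeq2 size factors (-0.0368) and with all reads as the total (-0.0162). The members' median was 0.10 and that of the 275 genes 0.03.

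As folds with exact 95% intervals of counting error, Mir301 stood at 1.13 (1.09 to 1.16) and Mir301b at 1.08 (0.945 to 1.24). The difference of Mir301 was larger in size than those of 65.5% of the 275 genes, and that of Mir130b larger than those of 14.5%. The neighbours Mir130b and Mir301b had folds of 1.02 and 1.08. The interval of Mir301b contains the fold of Mir130b, but also those of Mir130a (1.06) and Mir301 on other chromosomes. It therefore does not single out the neighbour.

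**Figure D5:**
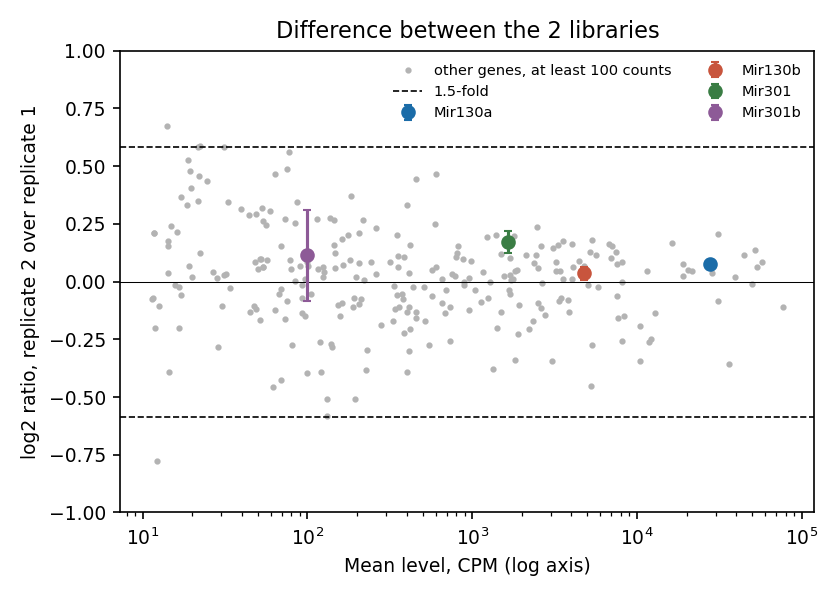
Log2 ratio of replicate 2 over replicate 1 against mean CPM (log axis) for the 275 genes that reached 100 counts over both libraries, with dashed lines at 1.5-fold. The 4 family genes, with 95% counting intervals as bars, lie between 0.04 and 0.17, inside the dashed lines.

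The genes with the most similar level were named by the difference of mean log2 CPM over the 2 libraries, from the next 2 above and below each member. For Mir130a the nearest was Mir26b, at 28664 ± 500 CPM and 0.04 above it on the log2 scale, and their ranges overlapped. The next gene below, Mir30e, at 21558 ± 491 CPM, did not overlap the range of Mir130a.

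For Mir130b the nearest were Mir30a (4797 ± 159 CPM) and Mir182 (4804 CPM), both overlapping it, while Mir151 and Mir455 below it did not. For Mir301, all 4 neighbours overlapped it: Mir181a-1 at 1688 ± 84.2 CPM, Mir148a at 1684 ± 31.8 CPM, Mir107 at 1549 ± 18.5 CPM and Mir542 at 1500.4 ± 96.6 CPM. For Mir301b, Mir874, Mir128-2, Mir412 and Mir539 lay within 0.04 of it on the log2 scale and overlapped it too. Mir30a changed order with Mir130b between the libraries, as did Mir148a and Mir542 with Mir301 and all 4 neighbours with Mir301b. The ranks of Mir130b, Mir301 and Mir301b among such neighbours are therefore not resolved by the 2 libraries. Mir26b stood above Mir130a in both libraries, though their ranges overlapped.

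Other mouse microRNAs carry the family's seed. Besides the 3 arms of the members, 4 of the 1738 mature arms in the RefSeq table had AGUGCAA at bases 2 to 8, and they are shown because they extend the seed family beyond the 4 genes:
miR-130c: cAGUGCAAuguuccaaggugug
miR-721: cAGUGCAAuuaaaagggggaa
miR-6341: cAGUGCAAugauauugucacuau
miR-6389: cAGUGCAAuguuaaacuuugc

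Mir130c, Mir6341 and Mir6389 had 0 counts in both libraries, a result that allows a level of up to 3 counts, equal to 0.651 CPM for replicate 1 and to 0.724 CPM for replicate 2. This limit covers counting error only. Reads with several alignments were given to no gene and lie outside it, and copies of these genes' arms were not searched for. Mir721 was not among the genes counted, so no reads could be assigned to it. Among the counted genes with a listed arm of this seed, Mir130a, Mir130b and Mir301 therefore held all the reads counted. Mir301b, with 439 and 427 counts, has the seed letters in its hairpin but no listed 3p arm, so that statement leaves it out.

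How far reads of 1 member could be counted at another was looked at in the sequences. The longest exact stretch that member hairpins share was 16 bases, between Mir301 and Mir301b, and Mir130a and Mir130b shared 12. Outside the family the longest was 17 bases, between Mir130a and Mir6389. None of the 7 listed arms had an exact copy in another gene among 141767 GENCODE transcripts, and a genome sequence was not used here. Reads with several alignments, 31.8% and 32.6% of all reads in replicates 1 and 2, were given to no gene. Whether any came from the family, and whether reads of Mir301 with a changed base were counted at Mir301b, was not tested. Opposite-strand reads at the members came to 2 at Mir130a in replicate 1 and 0 elsewhere.

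Related microRNAs outside the 4 genes were listed for comparison: Mir19a, Mir19b-1 and Mir19b-2 of the miR-17-92 and related clusters and Mir148a, Mir148b and Mir152, which have a related core but a shifted seed, and further Mir454, Mir721 and Mir130c. Of these 9 genes, 7 were among the genes counted and 6 were detected. Their median was 186 CPM over the 6, beside 177 CPM over all detected genes. Mir148a was the highest at 1684 CPM, at the level of Mir301, and Mir19b-2 the lowest at 4.82 CPM. Mir19b-1 and Mir19b-2 give the same mature 3p arm, so their counts are lower limits.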

How the data were processed

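Small RNA libraries of 2 embryonic limb samples were analysed. The deposited tables held raw counts of reads per gene in 3 columns, without a header, and 4 tally rows. Per the file headers of the deposited read-me texts, the build was mm10 and the annotation GENCODE M4. The aligner and counter are not given in the sources used here. Columns were taken as either-strand, own-strand and opposite-strand counts, judged from their values. Own-strand counts were scaled to their library sum without tally rows, which kept unmapped reads (12.8% and 13.7% of all reads in replicates 1 and 2), reads with several alignments and reads on no gene (4.19% and 4.31%) out.

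Names and positions came from GENCODE M21, on the same build, which matched 1894 of 1973 genes. A gene was called detected from 10 counts in each library. Log2 ratios had a prior count of 0.5. The fold rule was tested on simulated data that held counting error only and changes larger than 1.5-fold. That does not show how the rule handles changes near 1.5-fold or other variation between libraries. Intervals are exact (Clopper-Pearson) at 95% and, like the floor of 3 counts, cover counting error only, since no molecular identifiers were recorded. With 1 group and a family chosen on measured values, no test between groups was made. Members and lists were chosen with earlier results of these data known.

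Named genes were the 4 members, genes with their seed, microRNA genes within 10 kb, and the 2 genes next above and below each member in level. Alternatives were reads on either strand, totals with reads of several alignments, with all reads or without the 10 most abundant genes, TMM factors (edgeR 4.0.16), DESeq2 1.42.0 size factors, other count filters, other prior counts, and leaving out each replicate. Division by annotated gene length was added after seeing the data. Computation ran in R 4.3.3 and in Python 3.11.15 with scipy 1.17.1, pandas 2.3.3, numpy 2.4.6 and matplotlib 3.10.9.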

Additional observations from a re-analysis of the deposited data

How the results depend on the processing

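The family sum of 34295 CPM depended on the total: it was 20896 CPM with reads of several alignments in the total, 17244 CPM with all reads and 64945 CPM without the 10 most abundant genes. Divided by annotated gene length, Mir130b stood at 56.8 times Mir301b, Mir130a at 22.7 times Mir301, and the Mir130a share was 84.8%. The other scalings left the ratios between members as they were by construction. The count of genes past 1.5-fold was 3, and 50 where at least 10 counts in total were required, which adds genes of few reads. The log2 ratio of Mir130b was 0.04 and turned to -0.0162 with all reads as the total, -0.0270 with TMM factors and -0.0368 with DESeq2 size factors, each within 1.5-fold. Among values of single members, 27 others moved by more than the spread between libraries (for log2 ratios, beyond the counting interval) and 74 did not. Leaving out a replicate gave the other library's value: 33381 to 35209 CPM for the family sum, 81.0% to 81.1% for the Mir130a share, 46.7 to 49.3 for Mir130b over Mir301b, 16.4 to 17.5 for Mir130a over Mir301 and 2.82 to 3.09 for the chromosome 16 genes over Mir301. No paired analysis was possible because there was 1 group. Depth limits Mir301b most, at 439 and 427 counts, and 2 libraries give SDs of low precision.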
